A study of Mus musculus with 22 samples.

Results

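The 9 genes described here carry out antigen presentation by the class I molecules of the major histocompatibility complex (MHC), and they are 9 of 20239 genes tested and of 21225 features on the arrays. They were chosen by gene identity, with earlier results of these data known: the heavy chains H2-K1, H2-D1 and H2-T23, the light chain B2m, the peptide transporter subunits Tap1 and Tap2, the loading factor Tapbp, and the immunoproteasome subunits Psmb8 and Psmb9. All 9 were measured, and each had 1 value per array. Expression was profiled on Affymetrix mouse gene 1.0 ST arrays in dissected cortex and hippocampus of 6 Ts1Cje females and 5 wild-type (WT) female littermates aged 8 to 10 weeks. Each animal gave 1 array per region, so that there were 4 groups, Ts1Cje cortex, WT cortex, Ts1Cje hippocampus and WT hippocampus, and 22 arrays. Ts1Cje mice model Down syndrome and carry an extra copy of a distal part of chromosome 16, and no group received a treatment. Their sires had been crossed back to C57Bl/6J females, and cortex and hippocampus were extracted with different RNA kits, so that region and kit cannot be told apart. None of the 9 genes lies in the triplicated part: B2m is on chromosome 2 and the other 8 are on chromosome 17.

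In class I presentation, proteasomes cut proteins of the cytosol into peptides, and the transporter formed by Tap1 and Tap2 carries these peptides into the endoplasmic reticulum. Tapasin, the product of Tapbp, holds the transporter next to an empty class I molecule, a heavy chain bound to the light chain beta-2-microglobulin, until a peptide fits and the complex travels to the cell surface. Interferons raise the transcription of most of these genes in many cell types, and in the mouse brain class I molecules are also known from work on synapse pruning and plasticity, where mutants of H2-K1 and H2-D1 have been studied.

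Promoter sequence was available for 8 of the 9 genes, as windows of 250 bases before to 50 bases after an annotated start in RefSeq GRCm38.p6, and Tap2 had none. The windows of H2-K1, H2-D1, H2-T23 and B2m are shown because these genes encode the chains of the class I molecule, and H2-K1 and H2-D1 had the largest genotype differences of the 9 genes in both regions when all animals were kept. They lie at chr17:34000284-34000583 on the minus strand for the first of 2 starts of H2-K1, at chr17:35262844-35263143 on the plus strand for H2-D1, at chr17:36032652-36032951 on the minus strand for H2-T23, and at chr2:122147437-122147736 on the plus strand for B2m. Each is written 5′ to 3′, and capitals mark matches, on either strand, to the interferon-stimulated response element (GAAA, any 2 bases, GAAA), the shorter interferon regulatory factor element GAANNGAAA and the kappa-B consensus.
H2-K1: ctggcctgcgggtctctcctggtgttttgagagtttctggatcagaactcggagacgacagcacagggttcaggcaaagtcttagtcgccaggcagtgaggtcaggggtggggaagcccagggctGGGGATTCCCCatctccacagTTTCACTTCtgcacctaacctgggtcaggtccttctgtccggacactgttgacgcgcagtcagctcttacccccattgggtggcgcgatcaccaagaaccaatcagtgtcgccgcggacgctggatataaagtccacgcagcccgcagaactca
H2-D1: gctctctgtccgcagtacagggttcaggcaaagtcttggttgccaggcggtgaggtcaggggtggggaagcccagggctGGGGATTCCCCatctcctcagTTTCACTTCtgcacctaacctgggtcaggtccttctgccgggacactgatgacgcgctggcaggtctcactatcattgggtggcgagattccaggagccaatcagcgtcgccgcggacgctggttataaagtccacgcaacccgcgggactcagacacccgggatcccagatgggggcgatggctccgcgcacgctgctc
H2-T23: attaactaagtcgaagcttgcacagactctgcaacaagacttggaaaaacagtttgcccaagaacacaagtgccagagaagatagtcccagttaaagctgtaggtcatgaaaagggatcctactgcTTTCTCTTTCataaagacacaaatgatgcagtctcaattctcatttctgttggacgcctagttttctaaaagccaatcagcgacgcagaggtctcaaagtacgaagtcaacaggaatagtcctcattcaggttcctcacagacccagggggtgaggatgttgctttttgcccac
B2m: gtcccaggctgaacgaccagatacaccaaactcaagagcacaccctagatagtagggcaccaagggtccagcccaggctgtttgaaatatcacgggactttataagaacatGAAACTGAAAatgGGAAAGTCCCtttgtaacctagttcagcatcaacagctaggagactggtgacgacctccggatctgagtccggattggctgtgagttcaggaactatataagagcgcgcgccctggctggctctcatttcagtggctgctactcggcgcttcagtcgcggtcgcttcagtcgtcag

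H2-K1 and H2-D1 carry the same run GGGGATTCCCC, in which matches to the kappa-B consensus overlap one another on both strands, and a match to GAANNGAAA follows it on the other strand. In H2-K1 the run spans positions -125 to -115 and the element -104 to -96 from the first start. In H2-D1 they span -171 to -161 and -150 to -142. The longest run of letters shared by these windows is 47 bases, against 8 bases between H2-T23 and H2-K1 and 12 bases between H2-T23 and H2-D1. H2-T23 and B2m instead hold a match to the interferon-stimulated response element, and in B2m a kappa-B match lies 3′ of it without overlap. Over 32851 RefSeq promoter windows, 8.46% held a kappa-B match, 7.52% held GAANNGAAA and 3.44% held the response element, against 3, 2 and 2 of the 8 members with a window. CCAAT was present in 7 of the 8 (37.4% of all windows), TTCNNNGAA in Psmb8 only (8.3%), and TGACGT in none (7.51%). The windows of Tap1 and Psmb9, which face away from each other, share 275 bases, and the CCAAT match of each is the same 1 site. A match describes letters and shows no binding.

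In both regions, Ts1Cje animal 64 and WT animal 60 had arrays unlike the rest. Their log2 signals spread less over the features (SD 1.86 to 1.95 in cortex and 1.985 to 2.06 in hippocampus, against 2.17 to 2.22 and 2.14 to 2.19 on the other arrays), and the dimmest genes sat 0.44 to 0.70 higher in cortex and 0.19 to 0.28 higher in hippocampus. Results are therefore also given without these 2 animals. Regional identity was checked on marker genes after each array was centred on its median. Of 4 cortical markers, Rorb, Cux2 and Tbr1 were lower in hippocampus and Fezf2 was higher, and of 5 hippocampal markers Prox1, Dsp, C1ql2 and Zbtb20 were higher and Pdzd2 lower. As a check of genotype, the interferon receptor genes Ifnar1 and Ifngr2 on chromosome 16 were read. Both were higher in all 6 Ts1Cje animals than in all 5 WT animals in both regions. Such separation was seen for 0.232% of all genes in cortex and 0.38% in hippocampus. For Ifnar2, also on chromosome 16, 5 of 6 Ts1Cje animals lay above every WT animal in each region. Animal 64 lay within the WT range.

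The genotype comparison asked which genes differ between Ts1Cje and WT animals in each region. No member passed the test in either region: 0 of 9 in cortex, where 0.00494% of all genes passed, and 0 of 9 in hippocampus, where 0.114% passed (limma, adjusted p under 0.05 over all 20239 genes). At an unadjusted p under 0.05, H2-K1 and H2-D1 were higher in Ts1Cje cortex (0.889% of all genes), H2-K1 was higher in Ts1Cje hippocampus (2.02%), and no member was lower in either region (0.41% of all genes in cortex and 1.69% in hippocampus). The log2 difference was above 0 for 7 of 9 members in cortex (48.5% of all genes) and 5 of 9 in hippocampus (46.3%). Its median over the members was 0.12 in cortex and 0.05 in hippocampus, beside -0.003 and -0.006 over all genes. When both arrays of an animal were averaged, 0 of 9 passed (0.0593% of all genes), with H2-K1 and H2-D1 again under an unadjusted p of 0.05 and higher (0.988%). Tested for a change of the genotype effect from cortex to hippocampus, 0 of 9 members and 0% of all genes passed, and 0 of 9 members and 1.28% of all genes had an unadjusted p under 0.05. With animals 60 and 64 left out, 0 of 9 members passed in cortex, hippocampus or the means, where 0.158%, 0.183% and 0.257% of all genes did. At an unadjusted p under 0.05, 3 of 9 were then higher in cortex (3.51% of all genes) and 1 of 9 in hippocampus (4.43%). In whole tissue, more cells of a type and more RNA per cell cannot be told apart.

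**Figure D1:**
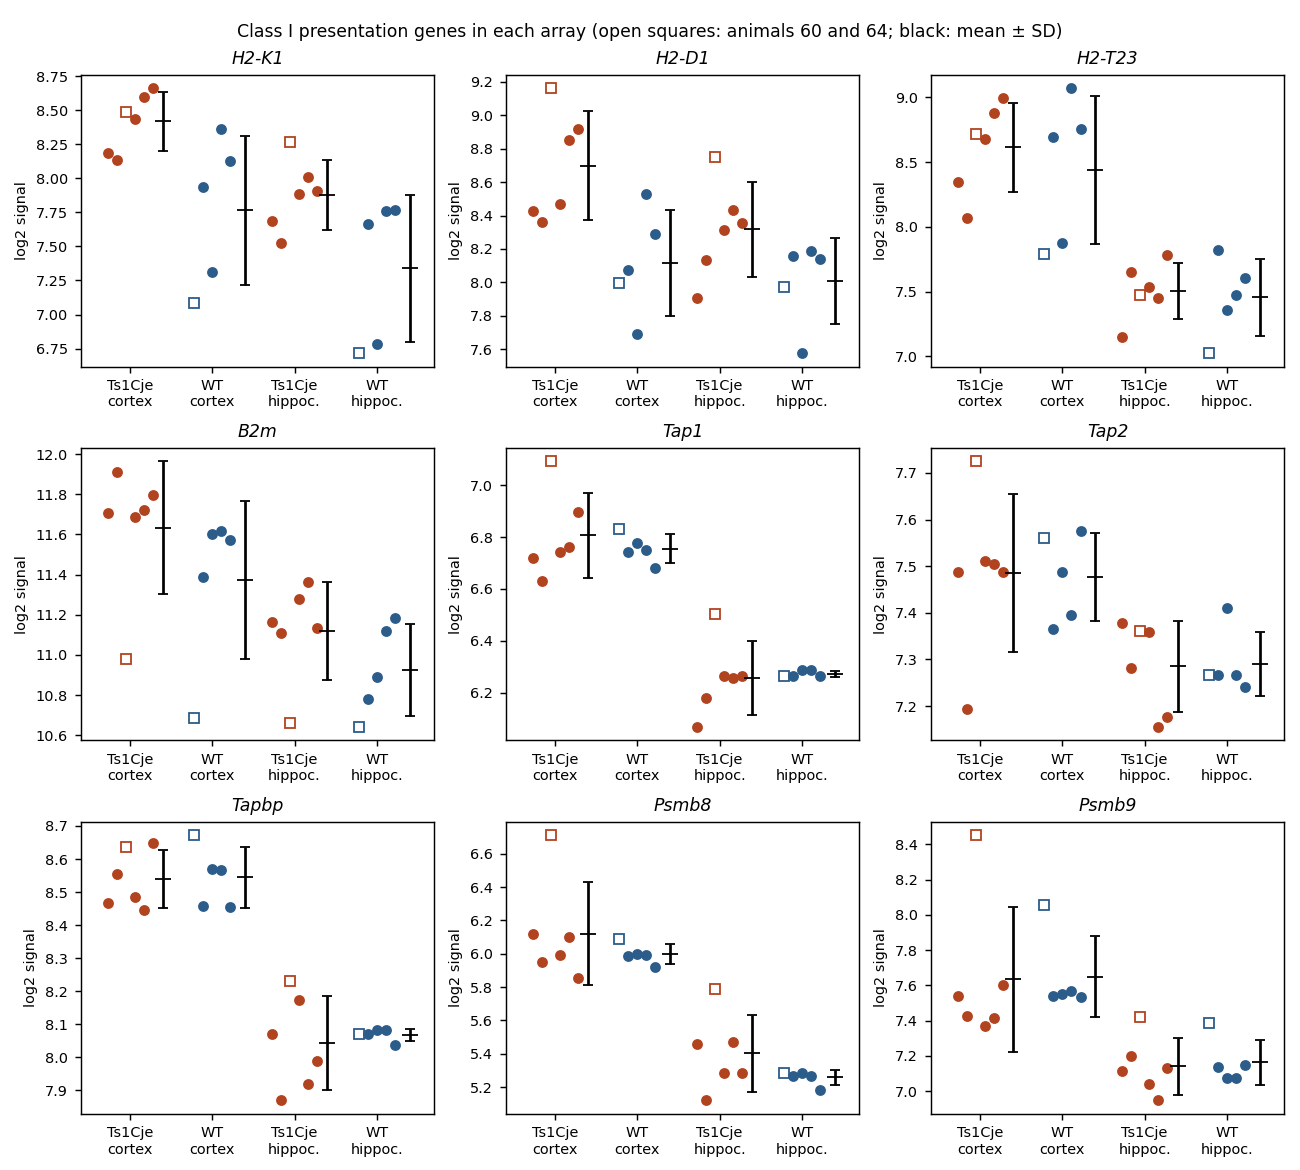
The log2 signal of the 9 genes on each of the 22 arrays, 1 panel per gene, with Ts1Cje (red) left of WT (blue) in each region, black bars for mean ± SD (n = 6 Ts1Cje and n = 5 WT) and open squares for animals 60 and 64. H2-K1 is lowest in WT animals 60 and 65 in both regions, while the Tap, Tapbp and Psmb genes overlap between genotypes.

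H2-K1 encodes a classical class I heavy chain, which presents peptides to CD8 T cells. In Ts1Cje cortex its log2 signal ran from 8.13 over a median of 8.46 to 8.66, and the WT cortices had 7.08, 7.94, 7.31, 8.36 and 8.13. In cortex 4 of 6 Ts1Cje animals were above every WT animal, and 4 of 5 WT animals were below every Ts1Cje animal. The difference was 0.65 ± 0.22 (SE), with a 95% interval of 0.17 to 1.13, an unadjusted p of 0.0118 and a limma adjusted p of 1. In Ts1Cje hippocampus H2-K1 ran from 7.52 over 7.90 to 8.26, and the WT hippocampi had 6.72, 7.67, 6.78, 7.76 and 7.77. Again 4 of 6 Ts1Cje animals lay above every WT animal, and WT animals 60 and 65 lay well below all others. The difference was 0.54 ± 0.22, with an interval of 0.06 to 1.02 and an unadjusted p of 0.0292 (limma adjusted p = 1.00). After leaving out animals 60 and 64 it was 0.47 ± 0.19 in cortex (unadjusted p = 0.0365) and 0.31 ± 0.20 in hippocampus (unadjusted p = 0.153).

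H2-D1 encodes another classical class I heavy chain. Its log2 signal in Ts1Cje cortex ran from 8.36 over 8.66 to 9.16, and the WT cortices had 8.00, 8.07, 7.69, 8.53 and 8.29. The highest value was that of animal 64, and 3 of 6 Ts1Cje animals lay above every WT animal. The difference was 0.58 ± 0.18, with a 95% interval of 0.19 to 0.98 and an unadjusted p of 0.00724 (limma adjusted p = 1). In Ts1Cje hippocampus it ran from 7.91 over 8.33 to 8.75, and the WT hippocampi had 7.97, 8.16, 7.57, 8.19 and 8.14. The groups overlapped, and Ts1Cje animals 61 and 63 lay within the WT range. The difference was 0.31 ± 0.15, with an interval of -0.01 to 0.63 and an unadjusted p of 0.0595. Without animals 60 and 64 it was 0.46 ± 0.17 in cortex and 0.21 ± 0.15 in hippocampus (unadjusted p = 0.0234 and 0.175). The mouse heavy chain genes are near-identical in part, and how the authors' probe sets divide shared probes was not tested, so their separate values are uncertain.

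H2-T23 encodes Qa-1, a nonclassical heavy chain that natural killer cell receptors recognise. In Ts1Cje cortex it ran from 8.07 over 8.70 to 9.00, and the WT cortices had 7.79, 8.69, 7.88, 9.07 and 8.76. The highest and the lowest cortical values both belonged to WT animals, 95 and 60. The difference was 0.18 ± 0.25 in cortex and 0.05 ± 0.14 in hippocampus, with 95% intervals of -0.37 to 0.73 and -0.25 to 0.35. In hippocampus it ran from 7.15 over 7.51 to 7.78 in Ts1Cje and from 7.02 to 7.82 in WT animals, and the Ts1Cje range lay inside the WT range. When animals 60 and 64 were left out, the differences were -0.005 ± 0.25 and -0.05 ± 0.13.

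B2m encodes beta-2-microglobulin, the light chain that every class I heavy chain needs at the surface. In Ts1Cje cortex its log2 signal ran from 10.98 over 11.71 to 11.91, and the WT cortices had 10.69, 11.39, 11.60, 11.62 and 11.57. In cortex 5 of 6 Ts1Cje animals lay above every WT animal, and the exception was animal 64. With all animals the difference was 0.26 ± 0.20 (unadjusted p = 0.215, limma adjusted p = 1). Without animals 60 and 64 all 5 remaining Ts1Cje cortices were above all 4 remaining WT cortices, as they were for 1.36% of all genes. The difference was then 0.22 ± 0.06, with a 95% interval of 0.08 to 0.36 and an unadjusted p of 0.0054 (limma adjusted p = 0.663). The adjusted p ranged from 0.487 to 1 over the alternative settings. In Ts1Cje hippocampus B2m ran from 10.66 over 11.15 to 11.36, and the WT hippocampi had 10.64, 10.78, 10.89, 11.12 and 11.19. The difference was 0.19 ± 0.13 with all animals and 0.22 ± 0.09 without animals 60 and 64, when the unadjusted p was 0.0379 (limma adjusted p = 0.57). Of the 5 Ts1Cje animals kept, 2 exceeded every WT animal there. In the means of both regions without these animals it was 0.22 ± 0.06 (unadjusted p = 0.00363, limma adjusted p = 0.354).

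**Figure D2:**
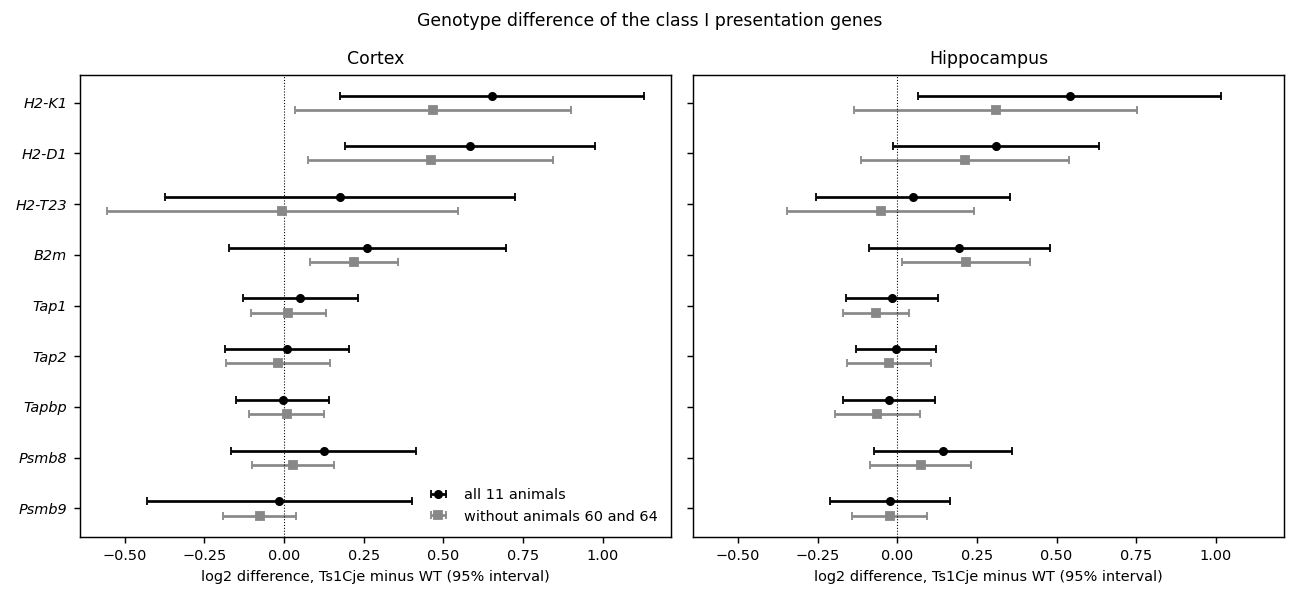
The log2 difference, Ts1Cje minus WT, of the 9 genes in cortex and hippocampus, as estimates with 95% intervals from limma for all 11 animals (black circles) and without animals 60 and 64 (grey squares). The interval of H2-K1 excludes 0 in both regions with all animals, that of H2-D1 in cortex, and that of B2m in both regions once animals 60 and 64 are left out.

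No gene of peptide transport and loading had an unadjusted p under 0.05 between genotypes. Tap1 ran from 6.63 over 6.75 to 7.09 in Ts1Cje cortex, and the WT cortices had 6.83, 6.74, 6.78, 6.75 and 6.68. In hippocampus Tap1 ran from 6.07 over 6.26 to 6.50 in Ts1Cje and from 6.26 to 6.29 in WT animals. The difference was 0.05 ± 0.08 in cortex and -0.02 ± 0.07 in hippocampus. Its highest value in both regions was that of animal 64. Tap2 ran from 7.19 over 7.496 to 7.72 in Ts1Cje cortex, and the WT cortices had 7.56, 7.37, 7.49, 7.40 and 7.57. In hippocampus Tap2 ran from 7.16 over 7.32 to 7.38 in Ts1Cje, and the WT hippocampi had 7.27, 7.27, 7.41, 7.27 and 7.24. Its difference was 0.008 ± 0.089 in cortex, with a 95% interval of -0.19 to 0.20, and -0.005 ± 0.058 in hippocampus, with an interval of -0.13 to 0.12. For Tap2 the groups overlapped in both regions. Tapbp ran from 8.45 over 8.52 to 8.65 in Ts1Cje cortex, and the WT cortices had 8.67, 8.46, 8.57, 8.57 and 8.45. In hippocampus Tapbp ran from 7.87 over 8.03 to 8.23 in Ts1Cje, and the WT hippocampi had 8.07, 8.07, 8.08, 8.08 and 8.04. The WT values lay inside the Ts1Cje range in hippocampus. Its difference was -0.005 ± 0.067 in cortex and -0.03 ± 0.07 in hippocampus, with intervals of -0.15 to 0.14 and -0.17 to 0.12.

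Several of these genes hardly varied among the WT hippocampi. Tap1 had an SD of 0.143 over the 6 Ts1Cje animals against 0.0122 over the 5 WT animals, and Tapbp 0.142 against 0.0187. Tap1 held exactly the same deposited value on 4 of 11 hippocampus arrays, 3 of them WT, as did Psmb8 on 4 arrays. Values shared by at least 4 arrays occurred in 11.7% of all genes in hippocampus and in 7.17% in cortex, and how ties arose was not tested. None of the 3 heavy chains, and not B2m, held 1 value on more than 2 arrays of a region. No gene held a value in common between a cortex and a hippocampus array.

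Psmb8 and Psmb9 encode catalytic subunits that replace constitutive ones in the immunoproteasome. Psmb8 ran from 5.85 over 6.05 to 6.71 in Ts1Cje cortex, and the WT cortices had 6.09, 5.99, 6.00, 5.99 and 5.92. In hippocampus Psmb8 ran from 5.12 over 5.37 to 5.79 in Ts1Cje and from 5.18 to 5.29 in WT animals, inside the Ts1Cje range. The difference was 0.12 ± 0.13 in cortex and 0.14 ± 0.10 in hippocampus, and 0.03 ± 0.06 and 0.07 ± 0.07 without animals 60 and 64. Psmb8 and Tap1 were below the array median on all 22 arrays, Tap2 on 10, Psmb9 on 9 and H2-K1 on 4. The highest Psmb8 value in both regions was that of animal 64. Psmb9 ran from 7.37 over 7.48 to 8.45 in Ts1Cje cortex, and the WT cortices had 8.06, 7.54, 7.55, 7.57 and 7.53. In hippocampus Psmb9 ran from 6.95 over 7.12 to 7.42 in Ts1Cje, and the WT hippocampi had 7.38, 7.14, 7.07, 7.07 and 7.15. In both regions the highest Ts1Cje value was that of animal 64 and the highest WT value that of animal 60, the 2 animals whose arrays stood apart. The difference was -0.015 ± 0.190 in cortex and -0.02 ± 0.09 in hippocampus, and -0.08 ± 0.05 and -0.02 ± 0.05 without them.

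WT animals 60 and 65 had low heavy chain signals in both regions. The mean deviation of H2-K1, H2-D1 and H2-T23 from the region mean was -0.74 in cortex and -0.53 in hippocampus in both WT animal 60 and WT animal 65. The other 9 animals had values from -0.17 to 0.50 in cortex and from -0.18 to 0.40 in hippocampus. The WT animal 95 was at 0.29 in cortex and 0.04 in hippocampus, and the WT group held both low and high animals. The processing genes gave other values. Over Tap1, Tap2, Tapbp, Psmb8 and Psmb9 the deviation of animal 65 was -0.03 in cortex and 0.01 in hippocampus, and that of animal 60 was 0.14 and 0.04. Ts1Cje animal 64 had the highest value of 5 of the 9 members in cortex and of 6 in hippocampus, yet the lowest B2m of the Ts1Cje animals in both regions.

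**Figure D3:**
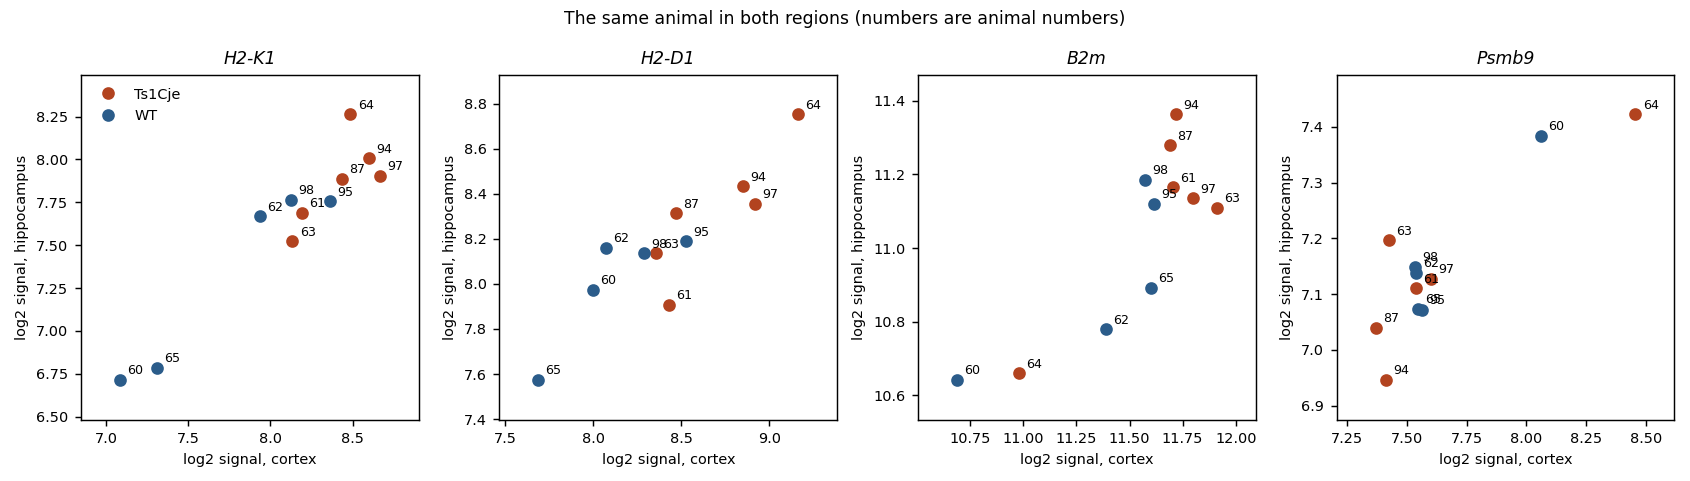
The log2 signal of H2-K1, H2-D1, B2m and Psmb9 in hippocampus (vertical axis) against cortex (horizontal axis), 1 point per animal with its number, Ts1Cje in red and WT in blue. WT animals 60 and 65 lie apart at the low end of H2-K1 in both regions, and animals 60 and 64 lie apart in Psmb9 and at the low end of B2m.

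The animals carry numbers in 2 series, 60 to 65 and 87 to 98, each with both genotypes. In the series 60 to 65 the mean H2-K1 signal in cortex was 8.27 in Ts1Cje and 7.44 in WT animals, a difference of 0.83 (n = 3 each). In the series 87 to 98 it was 8.565 in 3 Ts1Cje and 8.245 in 2 WT animals, a difference of 0.32. All Ts1Cje cortices were above all WT cortices of their own series for H2-K1, at 3 against 3 and 3 against 2 animals. Over both series together 4 of 6 Ts1Cje cortices were above every WT cortex. The share of all genes that separate so within the series was not counted, so no conclusion is drawn from the separation. The series 60 to 65 holds animals 60 and 64, whose arrays stood apart, and the low WT animal 65. In hippocampus the differences were 0.77 and 0.17. With the series as a covariate, chosen after seeing the data, the difference was 0.60 ± 0.16 in cortex (unadjusted p = 0.00389, limma adjusted p = 1.00) and 0.50 ± 0.20 in hippocampus (unadjusted p = 0.0278). H2-D1 gave 0.73 and 0.34 in the 2 series in cortex and 0.36 and 0.20 in hippocampus, and B2m gave 0.31 and 0.14 in cortex and 0.21 and 0.11 in hippocampus.

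Genes whose pattern over the animals was most like that of the members were picked by the Spearman rho with the mean of the 9 centred members, averaged over both regions (11 arrays each). They were AA388235 (0.805), Rps2 (0.795), Nrip2 (0.795), Sox8 (0.76), Cyp4f14 (0.76), Rhot2 (0.76), Irgq (0.76) and Gm1043 (0.74). These values describe shared arrays and carry no test. Of the 8 genes, 5 lie on chromosome 17, as do 4.78% of all tested genes. AA388235, annotated as a long noncoding RNA, has no protein-coding gene between it and H2-K1, Cyp4f14 has 39, and Rps2, which encodes a ribosomal protein, has 228. Likeness to H2-K1 alone, a choice made after the values were seen, gave H2-D1 (0.92) first and 7 of 8 genes on chromosome 17. The genes named depended on the measure and on animals 60 and 64. Pearson's r in place of rho, with all animals kept, shared 2 of the 8 genes and gave 4 on chromosome 17. Without these animals 0 of the 8 genes were shared and 0 lay on chromosome 17, and for H2-K1 alone 1 was shared, H2-D1 (0.93), and 2 lay on chromosome 17.

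AA388235 in Ts1Cje cortex ran from 6.03 over 6.62 to 7.05, and the WT cortices had 5.24, 6.17, 4.42, 7.13 and 6.17. In Ts1Cje hippocampus it ran from 5.57 over 5.99 to 6.55, and the WT hippocampi had 4.75, 5.71, 3.60, 6.45 and 5.76. As for H2-K1, WT animals 60 and 65 were the 2 lowest in both regions, and AA388235 was picked for its likeness over these same animals. Rps2 ran from 10.75 over 11.08 to 11.50 in Ts1Cje cortex, and the WT cortices had 10.00, 10.11, 10.27, 11.43 and 10.90. In Ts1Cje hippocampus it ran from 10.46 over 10.69 to 11.12, and the WT hippocampi had 9.74, 9.45, 9.50, 11.07 and 10.63. Here WT animals 60, 62 and 65 were the lowest, and WT animals 95 and 98 lay within the Ts1Cje range. No genotype of chromosome 17 was analysed here, and its part in these differences was not tested.

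**Figure D4:**
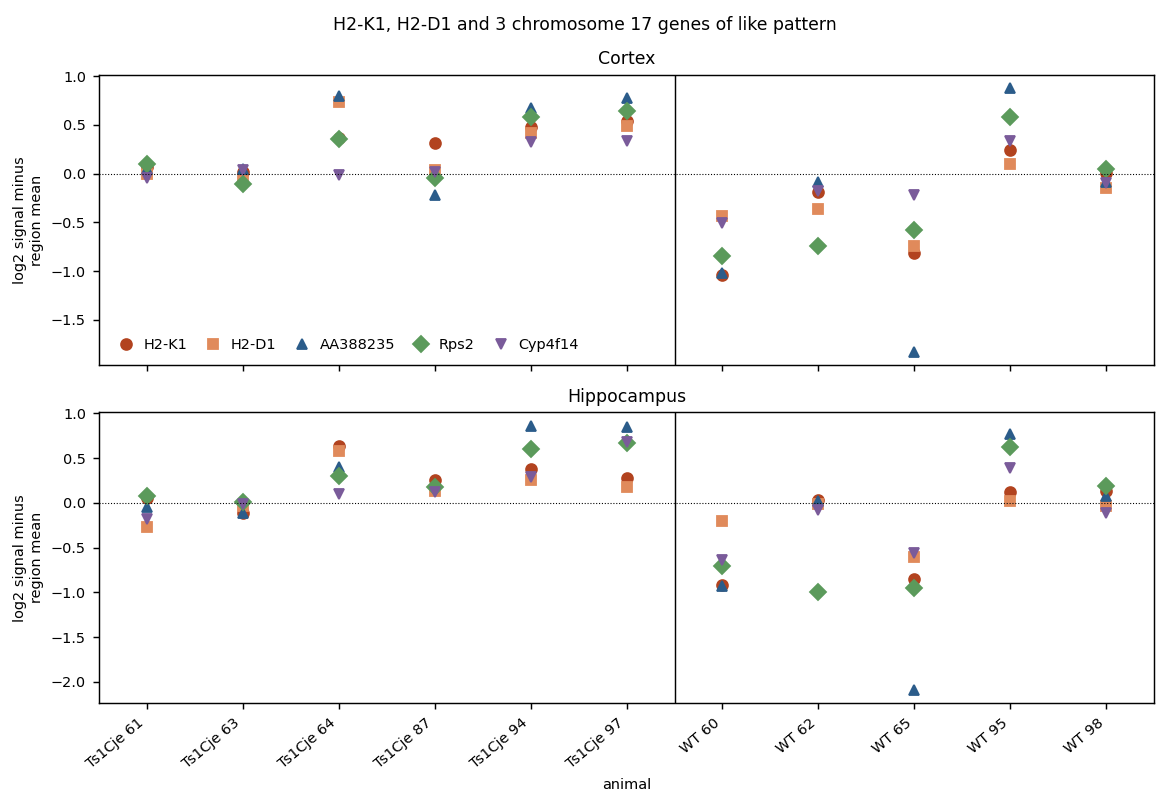
The log2 signal minus its region mean of H2-K1, H2-D1 and 3 chromosome 17 genes of like pattern in each animal, Ts1Cje left of the vertical line and WT right of it, in cortex (above) and hippocampus (below). WT animals 60 and 65 are below the region mean for all 5 genes in both regions, and so is WT animal 62 for H2-D1, Rps2 and Cyp4f14. The 3 genes were picked for their likeness over these same animals, so shared low animals follow from the choice.

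Between regions, after each array was centred on its median, 4 of 9 members passed the test, where 41.4% of all genes passed. This main fit held no block for the animal and treated both arrays of an animal as independent. Tap2, H2-D1 and Tapbp were higher in hippocampus (19.9% of all genes) and H2-T23 was lower (21.6%). The Tap2 mean minus the array median was 0.33 ± 0.08 in hippocampus and -0.11 ± 0.13 in cortex (SD, n = 11 each), and the difference of 0.43 ± 0.05 (limma adjusted p = 5.47e-07) was positive in 11 of 11 animals, from 0.24 to 0.73. The H2-D1 mean was 1.22 ± 0.31 in hippocampus and 0.85 ± 0.43 in cortex, with a difference of 0.38 ± 0.12 (limma adjusted p = 0.0147), positive in 11 of 11 animals. The Tapbp difference was 0.14 ± 0.04 (limma adjusted p = 0.0115), positive in 10 of 11. The difference in H2-T23 was -0.42 ± 0.15 (limma adjusted p = 0.031), and it was negative in 9 of 11 animals, the exceptions being Ts1Cje animal 63 and WT animal 65. H2-D1 and H2-T23 thus went in opposite directions in 9 of 11 animals, and both were higher in hippocampus in animals 63 and 65. Leaving out 1 animal at a time kept the calls of Tap2, H2-D1 and Tapbp. The H2-T23 call was lost without animal 61, 64, 87, 94, 95 or 98, with limma adjusted p-values of 0.05 to 0.089 and differences of -0.41 to -0.34. These fits also held no block for the animal. With all animals kept and the animal as a fixed or random replicate block, H2-T23 had limma adjusted p-values of 0.00391 and 0.00322.

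**Figure D5:**
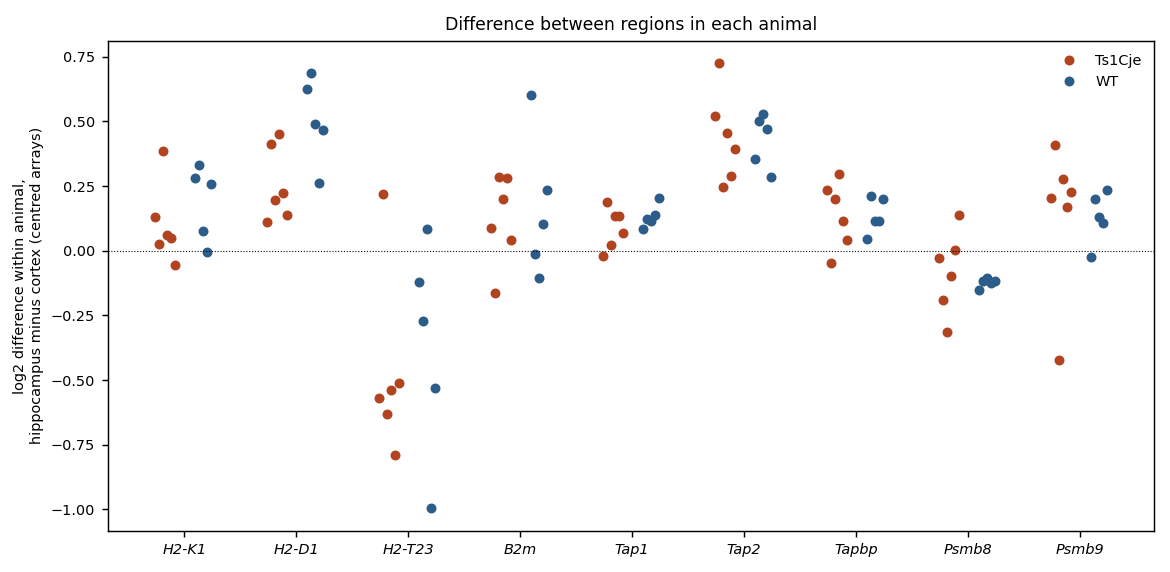
The log2 difference between hippocampus and cortex within each animal, after each array was centred on its median, for the 9 genes with Ts1Cje (red) left of WT (blue). All 11 animals lie above 0 for Tap2 and H2-D1, and 9 of 11 lie below 0 for H2-T23.

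The other 5 members missed the threshold between regions, at 0.14 for H2-K1, B2m and Psmb9, 0.11 for Tap1 and -0.10 for Psmb8. With the animal as a fixed replicate block 7 of 9 passed, where 54.1% of all genes did: Tap1, H2-K1 and Psmb8 had adjusted p-values of 0.00941, 0.0193 and 0.0459 there, and with a random block, where 54.2% of all genes passed, Tap1 had 0.0116. Without animals 60 and 64, 6 of 9 members and 65.5% of all genes passed. The members added were Psmb9 at 0.21 ± 0.03 (limma adjusted p = 2.95e-05) and Tap1 at 0.12 ± 0.03 (limma adjusted p = 0.00281). As deposited, all 9 members were lower in hippocampus, from -0.19 for Tap2 to -1.04 for H2-T23, and 8 of 9 passed, the exception being H2-D1, where 95.3% of all genes passed. The centred directions are therefore relative to the array median, which was 7.53 to 7.62 in cortex and 6.91 to 6.95 in hippocampus.

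Interferon receptors feed the signal that raises class I transcription, and 3 of their genes lie on chromosome 16. Of 7 receptor and Janus kinase genes 0 passed in cortex (0.00494% of all genes) and 1, Ifnar1, rose in Ts1Cje hippocampus (0.114% of all genes passed). Ifnar1, a subunit of the type I receptor, ran from 8.96 over 9.24 to 9.35 in Ts1Cje hippocampus, and the WT hippocampi had 8.68, 8.80, 8.77, 8.72 and 8.84. The difference was 0.46 ± 0.07 (limma adjusted p = 0.0395), and no animal of one genotype overlapped the other, as for 0.38% of all genes. In cortex it was 0.48 ± 0.10 (limma adjusted p = 0.587). Ifngr2, a subunit of the type II receptor, differed by 0.50 ± 0.09 in cortex and 0.35 ± 0.06 in hippocampus (limma adjusted p = 0.34 and 0.0664), and in the means of both regions it rose by 0.43 ± 0.06 (limma adjusted p = 0.0301). Ifnar2, the other subunit of the type I receptor, differed by 0.59 ± 0.16 in cortex and 0.43 ± 0.11 in hippocampus (limma adjusted p = 1 and 0.58), and Ifngr1, on chromosome 10, by 0.04 ± 0.12 and -0.07 ± 0.07. When animals 60 and 64 were left out, 3 of the 7 genes rose in cortex, 2 in hippocampus and 3 in the means. Of all genes, 0.158%, 0.183% and 0.257% passed there. In cortex Ifnar1 then rose by 0.47 ± 0.05, Ifnar2 by 0.55 ± 0.08 and Ifngr2 by 0.44 ± 0.05 (limma adjusted p = 0.00284, 0.0387 and 0.00591). In hippocampus Ifnar1 rose by 0.49 ± 0.05 and Ifnar2 by 0.46 ± 0.06 (limma adjusted p = 0.00415 and 0.0186), and Ifngr2 differed by 0.38 ± 0.06 (limma adjusted p = 0.0589). The calls with all 11 animals depended on which animals were kept. When 1 animal was left out, the hippocampal Ifnar1 difference stayed between 0.43 and 0.51 but passed only without animal 64, and the other 10 of 11 fits had limma adjusted p-values of 0.0948 to 0.17. The Ifngr2 call in the means was lost in 9 of 11 such fits (limma adjusted p of 0.0721 to 0.122) and held without animal 60 or 64. With the number series as a covariate the Ifnar1 difference of 0.455 missed the threshold (limma adjusted p = 0.0572).

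Of 24 interferon-stimulated genes measured, 0 passed in either region, with 4 at an unadjusted p under 0.05 and higher in cortex (0.889% of all genes) and 2 in hippocampus (2.02%). A difference above 0 was seen for 22 in cortex (48.5% of all genes) and 21 in hippocampus (46.3%). Their median difference was 0.21 in cortex and 0.12 in hippocampus, beside -0.003 and -0.006 over all genes. Without animals 60 and 64 again 0 passed in either region. At an unadjusted p under 0.05, 6 were then higher in cortex (3.51% of all genes) and 5 in hippocampus (4.43%), with medians of 0.18 and 0.14. Their mean log2 signal was highest in Ts1Cje animal 87, at 7.09 in cortex and 6.66 in hippocampus, beside Ts1Cje medians of 6.85 and 6.19. In cortex Ifi27 differed by 0.29 ± 0.09, with all 6 Ts1Cje animals above all 5 WT animals (0.232% of all genes), and in hippocampus by 0.04 ± 0.07, with 2 of 6 above and 2 of 6 below every WT animal. Oasl2, a member of the oligoadenylate synthetase family, differed by 0.31 ± 0.12 in cortex and 0.20 ± 0.19 in hippocampus. Mx2, an antiviral GTPase that lies on chromosome 16, differed by 0.43 ± 0.11 with no overlap in hippocampus (0.38% of all genes). In cortex Mx2 differed by -0.005 ± 0.146. The parts of gene dose and of interferon signalling in the Mx2 difference were not tested. The chemokine gene Cxcl10 differed by 0.19 ± 0.08 in hippocampus and 0.008 ± 0.177 in cortex. The limma adjusted p was 0.612 for Mx2 in hippocampus and 1 for Ifi27 in cortex.

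Among 10 measured regulators of class I transcription 0 passed in either region. Rfx5, a subunit of the factor that binds the promoters of class I and class II genes, ran from 6.94 over 7.15 to 7.24 in Ts1Cje hippocampus, against 7.34, 7.64, 7.46, 7.55 and 7.42 in the WT hippocampi. All 6 Ts1Cje animals were below all 5 WT animals there, as for 0.257% of all genes. The difference was -0.34 ± 0.07 in hippocampus (unadjusted p = 0.000357, limma adjusted p = 0.212) and -0.28 ± 0.08 in cortex (limma adjusted p = 1), where 4 of 6 lay below every WT animal. Without animals 60 and 64 Rfx5 fell by 0.33 in hippocampus (limma adjusted p = 0.0432) and by 0.32 in the means of both regions (limma adjusted p = 0.00294). Of all genes, 0.183% and 0.257% passed in these fits. In cortex the Rfx5 difference was then -0.30 (limma adjusted p = 0.1). Its partner Rfxank differed by -0.03 ± 0.07 in cortex and -0.07 ± 0.05 in hippocampus. Nlrc5, the coactivator of class I genes, differed by -0.05 ± 0.17 in cortex and 0.06 ± 0.09 in hippocampus, and the interferon-responsive Irf1 by -0.11 ± 0.07 and -0.002 ± 0.059. Irf9, which joins the complex that binds interferon-stimulated response elements, differed by 0.37 ± 0.11 in cortex (unadjusted p = 0.00525) and 0.12 ± 0.12 in hippocampus.

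The rest of the presentation machinery had no member past the threshold. Of 30 other class I and class I-like heavy chains 0 passed. With all animals 9 were above 0 in cortex (48.5% of all genes) and 20 in hippocampus (46.3%). Without animals 60 and 64 these counts were 14 and 16. H2-T22, a nonclassical heavy chain, differed by 0.31 ± 0.12 in hippocampus and 0.05 ± 0.16 in cortex, and H2-M3, which presents formylated peptides, by -0.17 ± 0.07 and -0.09 ± 0.12. Hfe and H2-M10.4 had the lowest p of this group in cortex, at -0.24 ± 0.12 and -0.35 ± 0.23. Both were highest in WT animal 60 there, at 7.19 and 7.24. Without animals 60 and 64 the differences were -0.12 ± 0.08 and -0.10 ± 0.05. Of 12 folding, trimming and loading genes 0 passed. In cortex Calr differed by 0.02 ± 0.09, Pdia3 by 0.16 ± 0.24 and Erap1, which trims peptides, by 0.05 ± 0.13. Tapbpl differed by -0.02 ± 0.08 there and Bcap31 by 0.04 ± 0.06. Without animals 60 and 64 the Pdia3 difference in cortex was -0.003 ± 0.059. In hippocampus Canx differed by 0.04 ± 0.05 and Ganab by -0.04 ± 0.05. Of 4 partners of the immunoproteasome 0 passed, with Psmb10 at -0.01 ± 0.09 in cortex and -0.13 ± 0.06 in hippocampus, Psme1 at 0.01 ± 0.10 and 0.01 ± 0.05, Psme2 at 0.02 ± 0.11 and 0.14 ± 0.10, and Pomp at 0.09 ± 0.18 and -0.09 ± 0.12. Of 13 constitutive proteasome genes 0 passed, and Psmb1 was at 0.14 ± 0.07 and 0.12 ± 0.08, Psma4 at 0.09 ± 0.07 in cortex and Psmb2 at -0.04 ± 0.04 in hippocampus.

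Receptors that bind class I and the class II genes gave no call. Of 8 class I receptors 0 passed, and Pirb, which is expressed by neurons and myeloid cells, differed by 0.10 ± 0.20 in cortex and 0.16 ± 0.08 in hippocampus. Klrd1 was at -0.24 ± 0.22 and Cd8a at -0.19 ± 0.24 in cortex, and Klrc1 at 0.18 ± 0.17 in hippocampus. In cortex Klrd1 and Cd8a lay below the array median and were highest in WT animal 60, at 5.29 and 7.27. Without animals 60 and 64 their differences in cortex were -0.16 ± 0.09 and -0.13 ± 0.06. Of 11 class II genes 0 passed. H2-DMb1, which loads class II molecules, differed by 0.87 ± 0.32 in cortex and -0.67 ± 0.25 in hippocampus. The difference between these effects was -1.55 ± 0.43 (unadjusted p = 0.00165, limma adjusted p = 1). In cortex WT animals 95 (4.41) and 60 lay far below WT animals 62, 65 and 98, each at 5.87. The lowest Ts1Cje cortex had 5.86, so those WT animals overlapped the Ts1Cje range. Without animals 60 and 64 the cortical difference was 0.55 ± 0.29, with a 95% interval of -0.09 to 1.19. H2-DMa was at 0.25 ± 0.12 in cortex and H2-Ea at -0.38 ± 0.26 in hippocampus.

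Markers of other cell types were read on the same arrays. Of 9 microglial markers 7 were above 0 in Ts1Cje cortex and 2 in hippocampus, and 0 passed. Their mean log2 signal spanned 8.51 to 8.66 in Ts1Cje and 8.48 to 8.61 in WT cortex, and 7.80 to 8.01 in Ts1Cje and 7.89 to 8.01 in WT hippocampus. Of 7 endothelial markers 5 were above 0 in cortex and 2 in hippocampus, with means of 9.09 to 9.44 in Ts1Cje and 9.13 to 9.41 in WT cortex, and of 8.50 to 8.68 in Ts1Cje and 8.51 to 8.66 in WT hippocampus. Of 9 lymphocyte markers 2 were above 0 in cortex and 5 in hippocampus, and their means, 5.24 to 6.12 in Ts1Cje and 5.36 to 6.09 in WT cortex and 4.62 to 5.22 in Ts1Cje and 4.65 to 4.88 in WT hippocampus, were highest on the arrays of animals 64 and 60. All 9 lymphocyte markers averaged below the array median in both regions. Of 7 choroid plexus markers 2 were above 0 in each region, with a median difference of -0.08 in cortex and -0.22 in hippocampus, where 2 were lower at an unadjusted p under 0.05, and 0 without animals 60 and 64. Their means spanned 6.42 to 8.15 in Ts1Cje and 6.67 to 8.12 in WT cortex, and 8.49 to 9.27 in Ts1Cje and 8.62 to 9.13 in WT hippocampus. Of 6 meningeal markers 6 were above 0 in cortex and 1 in hippocampus, with medians of 0.08 and -0.14. In hippocampus 1 was lower at an unadjusted p under 0.05 (1.69% of all genes), and 2 without animals 60 and 64. Of 5 hippocampal neuron markers 1 was above 0 in cortex and 0 in hippocampus, with medians of -0.04 and -0.14. In hippocampus 0 were lower at an unadjusted p under 0.05 with all animals. Without animals 60 and 64, 3 were, with a median of -0.16, and the share of all genes lower in that fit is not given here. Of 5 astrocyte markers 1 was above 0 in cortex and 0 in hippocampus, with medians of -0.01 and -0.09. Of 5 oligodendrocyte markers 4 were above 0 in cortex and 5 in hippocampus, with medians of 0.05 and 0.07. None of these markers passed between genotypes. The part of these cell types in the heavy chain differences was not tested. Between regions, all 7 choroid plexus markers were higher in hippocampus, at 1.74 for Otx2 to 2.96 for Ttr (log2, limma adjusted p of 8.55e-05 or less), and their part in the regional differences was not tested.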

How the data were processed

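RNA of dissected cortex and hippocampus from 6 Ts1Cje and 5 WT females was hybridised to 22 arrays. The values are log2 signals that the authors deposited for 21225 features, made by RMA per the submitters' processing notes. The RMA version and any joint normalisation of the regions are not given in the sources used. Each feature is 1 Entrez gene, and 20239 with a gene symbol were tested. The number of arrays limits the precision.

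Groups came from the array titles; 2 arrays titled as animal 60 are described as 61, and the title was used. Genotypes were compared within each region, in each animal's mean of both regions, and as a difference of the effect between regions, with limma 3.58.1 in R 4.3.3 (lmFit, eBayes) and Benjamini-Hochberg adjustment over all genes at 0.05. Hippocampus and cortex were compared on arrays centred at their median. In the main fits this comparison and the difference of the effect held no block for the animal, whose arrays counted as independent. The scripts were tested on simulated data. Arrays of 1 animal are paired by its number in the labels. The correlation of their deviations had a median of 0.265 (0.0523 to 0.761), and the best match was the animal's own partner in 2 of 11.

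The 9 genes and all lists were chosen with earlier results of these data known. Named genes were the members, a set of partners and receptors, the 2 lowest p-values per list and region, and the 8 genes of most similar pattern. Alternatives were moderation, array weights, quantile or median scaling, gene filters, threshold, left-out animals and replicate blocks. Likeness to H2-K1 alone and the number series were added after seeing the data. Some list genes were not analysed here.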

Additional observations from a re-analysis of the deposited data

Results flagged for a closer look

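Within a group, 1 animal stood far from the others (Dixon's criterion) in 10 of 36 combinations of gene and group, or 27.8%, where chance gives about 1 in 20. Of these, 7 fell on animals 60 and 64, whose arrays stood apart as a whole, and 3 on other animals.

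B2m was lowest on Ts1Cje animal 64 in cortex (10.98) and in hippocampus (10.66), and on WT animal 60 in cortex (10.69). Psmb9 was highest on Ts1Cje animal 64 in cortex (8.45), and on WT animal 60 in cortex (8.06) and in hippocampus (7.38). Psmb8 was highest on Ts1Cje animal 64 in cortex (6.71). The light chain was low and the immunoproteasome subunits were high on the arrays with the narrower spread of signals.

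The other 3 lay in WT hippocampus, where several genes held tied values: Tap2 was highest in animal 65 (7.41, the others 7.24 to 7.27), Tapbp was lowest in animal 98 (8.04, the others 8.07 to 8.08), and Psmb8 was lowest in animal 98 (5.18, the others 5.27 to 5.29).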

How the results depend on the processing

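No member passed the genotype test in either region under any setting run. The number of all genes called did depend on the setting. In cortex it was 1, against 3 with a trended robust prior, without the dimmest genes or at an adjusted p under 0.1, 13 after quantile normalisation, 50 with array weights, 32 without animals 60 and 64, and 23 in 1 fit of all arrays, both without a replicate block and with a random one for the animal. In hippocampus it was 23, against 54 with array weights and 37 without animals 60 and 64. In the means of both regions it was 12, against 20 with the trended robust prior and 52 without animals 60 and 64. Leaving out 1 animal at a time gave 1 to 7 called genes in cortex, 1 to 35 in hippocampus and 1 to 33 in the means, each highest without animal 64. Between regions 4 members passed, against 8 as deposited (19285 genes, member median -0.487) and 7 with the animal as a fixed replicate block. Without animals 60 and 64, 6 members and 13264 genes passed between regions.

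Small genotype differences changed sign, none of them called. Without animals 60 and 64, H2-T23 was at -0.005 in cortex, -0.052 in hippocampus and -0.029 in the means, Tap2 at -0.019 in cortex and -0.022 in the means, Tap1 at -0.027 in the means, Tapbp at 0.008 and Pdia3 at -0.003 in cortex, and Tapbpl at -0.028 and Ganab at 0.002 in hippocampus. The Psmb9 difference of effects was then 0.052. Array weights gave Psme1 -0.006 and Ifngr1 -0.005 in cortex, and H2-T23 -0.041, Tapbpl -0.023 and Ganab 0.006 in hippocampus. Quantile normalisation gave Psme1 -0.032, Psme2 -0.029 and Calr -0.004 in cortex, and Tap2 0.018 in hippocampus. Centring gave Tap2 -0.004 and Psme1 -0.003 in cortex, and Tap2 0.006 and Irf1 0.008 in hippocampus. The number series gave Psmb9 0.012 in cortex and Tap2 0.004 in hippocampus. Regional differences also changed sign, those called for Tap2, H2-D1 and Tapbp among them. As deposited, the regional difference was -0.482 for H2-K1 and B2m, -0.245 for H2-D1, -0.516 for Tap1, -0.193 for Tap2, -0.487 for Tapbp and -0.49 for Psmb9, by construction, since hippocampus arrays have a lower median. The cause of the other changes was not tested.

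Leaving out 1 animal at a time, these crossed 0. In cortex Tap1 spanned -0.006 to 0.087, Tap2 -0.04 to 0.066, Tapbp -0.027 to 0.028, Psmb9 -0.179 to 0.088, Psmb10 -0.078 to 0.032, Psme1 -0.05 to 0.065, Psme2 -0.05 to 0.082, Nlrc5 -0.169 to 0.088, Calr -0.036 to 0.066, Pdia3 -0.101 to 0.258, Erap1 -0.03 to 0.128, Tapbpl -0.07 to 0.009, Ifngr1 -0.063 to 0.107, Pomp -0.061 to 0.211 and Cd8a -0.342 to 0.029. In hippocampus H2-T23 spanned -0.058 to 0.141, Tap1 -0.066 to 0.021, Tap2 -0.024 to 0.025, Tapbp -0.064 to 0.008, Psmb9 -0.079 to 0.032, Psme1 -0.034 to 0.036, Nlrc5 -0.02 to 0.084, Irf1 -0.04 to 0.023, Calr -0.007 to 0.081, Pdia3 -0.022 to 0.172, Erap1 -0.123 to 0.012 and Tapbpl -0.013 to 0.072. In the means H2-T23 spanned -0.022 to 0.195, Tap1 -0.036 to 0.045, Tap2 -0.03 to 0.031, Tapbp -0.044 to 0.006 and Psmb9 -0.129 to 0.06. The difference of effects spanned -0.131 to 0.035 for B2m, -0.071 to 0.02 for Tap2, -0.059 to 0.016 for Tapbp, -0.012 to 0.06 for Psmb8 and -0.061 to 0.099 for Psmb9. H2-K1 stayed between 0.483 and 0.803 in cortex and 0.385 and 0.648 in hippocampus, and H2-D1 between 0.476 and 0.687 and 0.201 and 0.391.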
